A study of Mus musculus with 8 samples.

Results

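The BCL2 family sets the threshold at which a cell commits to mitochondrial apoptosis. The 10 members described here were chosen by gene symbol as Bcl2, Bcl2l1, Mcl1, Bax, Bak1, Pmaip1, Bbc3, Bid, Bcl2l11 and Bad, and all 10 were found among the 21878 genes of the deposited table. The choice was made with earlier results of these data known. RNA was sequenced from 8 mouse libraries whose labels name lung tissue and pulmonary endothelial cells. The labels give 4 libraries the treatment Ad-control and 4 the treatment Ad-KLK8. They do not expand the prefix Ad, and KLK8 is kallikrein-related peptidase 8, a secreted serine protease. The series title speaks of blocking this protease to protect lung endothelium in endotoxemia, but neither label names endotoxin or an inhibitor. Of strain, age, dose, time and whether replicates were separate cultures or animals, the sources used here say nothing, so the p-values speak for the spread among these libraries alone, and that spread may be technical.

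In the BCL2 family, survival proteins such as BCL2, BCL-XL (from Bcl2l1) and MCL1 hold back the effectors BAX and BAK, which otherwise assemble into pores in the outer mitochondrial membrane and let cytochrome c escape. BH3-only proteins carry a single family motif and start the process by occupying the groove of the survival proteins or by activating the effectors directly. Several of them are controlled largely through their transcripts, for example NOXA (from Pmaip1) and PUMA (from Bbc3) by p53, and BIM (from Bcl2l11) by FOXO factors. In endothelium, loss of this balance leads to cell death and leak of the barrier.

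The values are RPKM, reads per gene length and library size. Recovered whole reads totalled 15758696 to 16747740 for each Ad-control-labelled library and 17775433 to 18692134 for each Ad-KLK8-labelled one. Klk8 itself did not follow the labels. Its level was 1135, 1403, 1232 and 1422 RPKM among Ad-control-labelled libraries and 1159, 3263, 1354 and 1276 RPKM among Ad-KLK8-labelled ones, replicates 1 to 4 in order. The mean log2 difference was 0.31 (two-sided exact permutation p = 0.657, n = 4 per group, where the smallest possible p is 0.0286). It became −0.04 when Ad-KLK8-labelled replicate 2 was left out (exact p = 0.771). Each direction below therefore rests on the labels. Of 14 endothelial markers, 5 reached a mean of 1 RPKM among Ad-control-labelled libraries and 3 among Ad-KLK8-labelled ones. The junction gene Cdh5 had 24 and 3 reads summed over the groups, and Cldn5 had 1 and 3, but Esam had 2512 and 1767. Among those too low to be tested, Robo4 was higher without overlap, at 7 and 71 reads. Pecam1, at 35 and 13 reads, was lower without overlap, as was Cdh5. The summed level of the 14 was 30.1 to 33.4 and 19.6 to 23.1 RPKM. Of the 5 endothelial markers tested 4 were lower, beside 52% of all tested genes. The other, Egfl7, did not pass, at 4.54 and 4.59 RPKM. Of the 4 lower, Eng was no longer called after median-of-ratios scaling, which is described below. The 9 fibroblast markers all reached 1 RPKM, and their summed level was 1748 to 1988 RPKM among Ad-control-labelled libraries and 3840 to 3963 RPKM among Ad-KLK8-labelled ones. Of these markers 8 were higher and Thy1 was lower, at 79.8 and 24.0 RPKM. The summed level of 5 mesothelium markers was 161 to 209 and 541 to 590 RPKM, with 4 higher and Krt19 lower, at 22.5 and 0.758 RPKM. Beside these fibroblast and mesothelium counts, 25.7% of all tested genes were higher and 52% lower. The part of these marker differences in the results below was not tested.

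The comparison asked how the libraries labelled Ad-KLK8 differed from those labelled Ad-control in the transcripts of this family. Within the family the clearest difference lay in the BH3-only genes. Pmaip1, Bbc3, Bid and Bcl2l11 fell, by 4.55-fold, 2.39-fold, 1.81-fold and 1.95-fold between group means, while the fifth, Bad, rose by 1.15-fold. The effectors Bax and Bak1 and the survival genes Bcl2, Bcl2l1 and Mcl1 moved by at most 1.21-fold in either direction. Beside these falls, all 6 listed proliferation genes fell, where 52% of all tested genes were lower. The summed level of the 6 was 276 to 304 against 36.6 to 45.9 RPKM, and their part in the result was not tested. In bulk samples fewer cells of a type and less RNA per cell cannot be told apart.

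By limma over the 11998 genes averaging 0.5 RPKM or more, 7 of the 10 members passed an adjusted p of 0.05, against 77.7% of all tested genes. Of the members 6 were lower, where 52% of all tested genes were lower, and 1 was higher, where 25.7% were higher. The groups did not overlap for 6 members, all of them lower among Ad-KLK8-labelled libraries. Of all tested genes 49.1% were lower without overlap and 23.1% higher without overlap. The number of members called was thus close to the background and is no result about the family. On the log2(RPKM + 1) scale a fall of 2-fold or more was seen for Pmaip1 and Bbc3, against 9.85% of tested genes. The median log2 change was −0.24 over the members and −0.19 over all tested genes.

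That shift of all genes matters for the small changes. Median-of-ratios scaling, which sets the median gene to be unchanged, moved the median of all tested genes to −0.002. It left 4 members lower, which were the same BH3-only genes, and 3 members higher, which were Bcl2l1, Bak1 and Bad, against 38.7% and 38.4% of all tested genes. The falls of Mcl1 and Bax were no longer called after it.

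**Figure D1:**
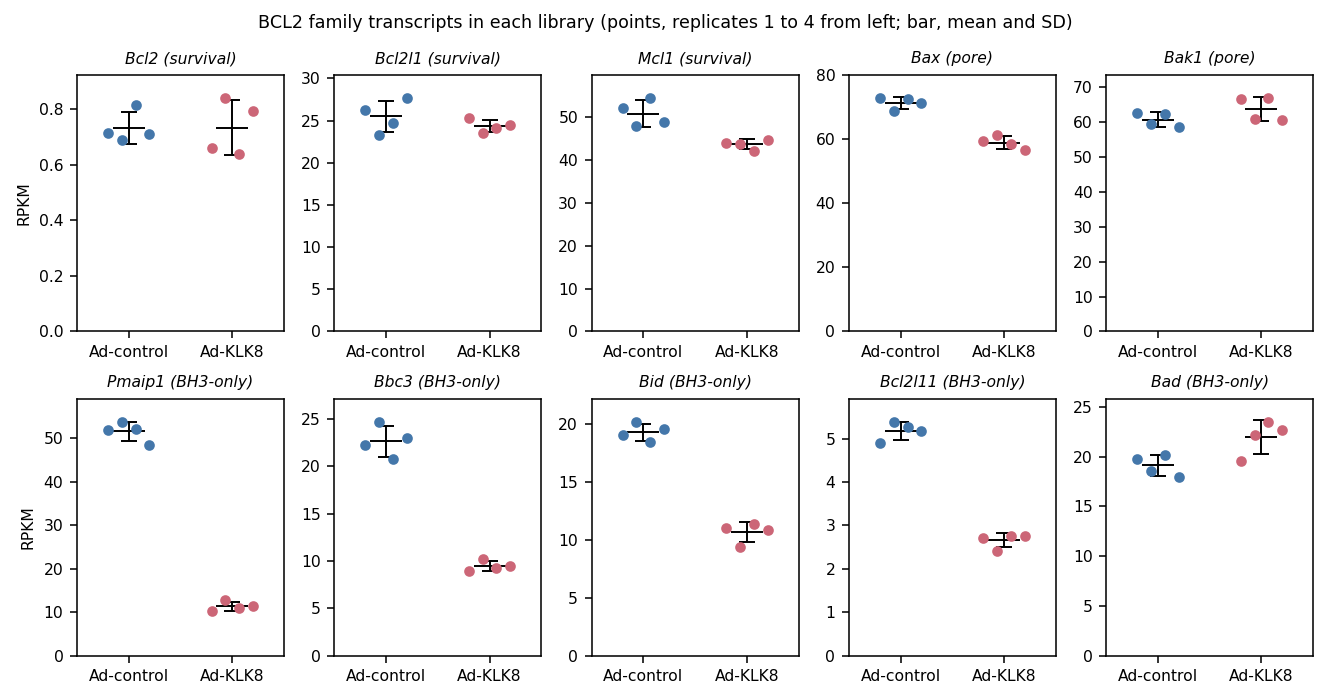
RPKM of the 10 members in each library, with a linear axis from 0 in every panel. Points are libraries in order of replicate, and bars are the mean and SD of 4 libraries. Pmaip1, Bbc3, Bid and Bcl2l11 form separate groups, with Pmaip1 at 48.5 to 53.7 against 10.4 to 12.8 RPKM, whereas Bcl2, Bcl2l1, Bak1 and Bad overlap.

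Pmaip1 encodes NOXA, a BH3-only protein that binds MCL1 in preference to other survival proteins and promotes its degradation. Its level was 51.9, 53.7, 52.1 and 48.5 RPKM among Ad-control-labelled libraries and 10.4, 12.8, 10.8 and 11.4 RPKM among Ad-KLK8-labelled ones. No library of one group came near the other. Means were 51.5 ± 2.18 and 11.3 ± 1.05 RPKM (SD, n = 4), a log2 change of −2.09 ± 0.06 (SE, limma adjusted p = 1.44e-09) from 2090 to 2311 reads per library in the first group and 509 to 604 in the second. Only 121 of the 11998 tested genes had a lower log2 change. After median-of-ratios scaling the change was −1.88 (adjusted p = 3.46e-09).

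Bbc3 encodes PUMA, which binds every survival protein of the family. It was measured at 22.2, 24.7, 20.8 and 22.9 RPKM among Ad-control-labelled libraries and at 8.97, 10.2, 9.23 and 9.46 RPKM among Ad-KLK8-labelled ones. The lowest library of the first group was still above the highest of the second. The log2 change was −1.17 ± 0.06 (SE, adjusted p = 3.03e-08), and 799 tested genes changed more in this direction. After median-of-ratios scaling it was −0.97 (adjusted p = 1.85e-07).

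Bid encodes the protein that caspase-8 cleaves to carry a death receptor signal to the mitochondrion. Its level was 19.0, 20.2, 18.4 and 19.6 RPKM among Ad-control-labelled libraries and 11.0, 9.40, 11.4 and 10.8 RPKM among Ad-KLK8-labelled ones. The groups lay apart. The log2 change was −0.80 ± 0.06 (SE, adjusted p = 4.48e-07) and −0.60 after median-of-ratios scaling (adjusted p = 7.52e-06). As deposited, 1874 tested genes had a lower log2 change than Bid. In GENCODE M21 the exons of Bid share 628 bases, 17.7% of its exonic length, with Bcl2l13 on the opposite strand. The libraries were stranded, but no source used here says whether counting used strand. Bcl2l13 stood at 8.97 ± 0.282 and 8.64 ± 0.106 RPKM (adjusted p = 0.305).

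Bcl2l11 encodes BIM, a BH3-only activator of BAX and BAK that is prominent in death after loss of growth factors. Levels were low, at 4.89, 5.38, 5.26 and 5.17 RPKM among Ad-control-labelled libraries and 2.71, 2.42, 2.76 and 2.75 RPKM among Ad-KLK8-labelled ones. Every library of the first group exceeded every one of the second, in which replicate 2 lay lowest, apart from the other 3. The log2 change was −0.76 ± 0.06 (SE, adjusted p = 4.67e-07), and this scale understates the change of a gene at this level. After median-of-ratios scaling it was −0.58 (adjusted p = 5.09e-06). As deposited, 2074 tested genes had a lower log2 change than Bcl2l11.

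Promoter sequences are shown for Bcl2l11, Bbc3 and Bid, members lower under both scalings. RefSeq windows on GRCm38.p6 ran from 250 bases before to 50 after a transcription start. Those searched were 15 windows of 9 members. Pmaip1 was left out of the search, so nothing is said here of its promoter. The build behind the deposited values is not settled, so genes were matched by symbol and gene identifier alone. The forkhead core GTAAACA, searched on both strands, was found in 1 window each of Bcl2l11 and Bbc3. Across all 32851 promoter windows 3.65% held it. Capitals mark it in the first pair of sequences, where it begins 227 bases before the start in Bcl2l11 and, on the reverse strand, 167 bases before it in Bbc3. In the third, that of Bid, capitals mark the GC box GGGCGG, which begins 66, 50 and 33 bases before the start and occurs in 35.7% of all windows and in 10 of the members' 15, which belong to 7 members, Bax and Mcl1 among them. All are printed 5′ to 3′ along the gene.
Bcl2l11, chr2:128125788-128126087, plus strand: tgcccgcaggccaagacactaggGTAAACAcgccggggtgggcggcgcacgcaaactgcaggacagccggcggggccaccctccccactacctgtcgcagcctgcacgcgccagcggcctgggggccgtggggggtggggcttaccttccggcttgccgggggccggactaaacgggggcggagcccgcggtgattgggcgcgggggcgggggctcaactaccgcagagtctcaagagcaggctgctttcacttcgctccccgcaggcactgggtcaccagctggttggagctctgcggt
Bbc3, chr7:16310011-16310310, plus strand: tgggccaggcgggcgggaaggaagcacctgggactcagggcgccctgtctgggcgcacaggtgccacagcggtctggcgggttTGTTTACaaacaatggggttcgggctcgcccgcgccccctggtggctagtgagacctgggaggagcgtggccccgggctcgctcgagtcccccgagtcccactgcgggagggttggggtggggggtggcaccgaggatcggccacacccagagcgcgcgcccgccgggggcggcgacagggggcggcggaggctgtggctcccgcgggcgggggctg
Bid, chr6:120916775-120917074, minus strand: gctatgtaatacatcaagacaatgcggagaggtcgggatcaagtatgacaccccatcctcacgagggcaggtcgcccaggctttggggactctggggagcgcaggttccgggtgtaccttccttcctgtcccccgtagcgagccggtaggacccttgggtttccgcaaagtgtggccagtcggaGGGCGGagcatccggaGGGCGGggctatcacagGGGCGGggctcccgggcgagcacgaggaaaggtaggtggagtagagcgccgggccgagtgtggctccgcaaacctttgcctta
The TATA box TATAAA (13.6% of all windows), the E2F motif TTTCCCGC (1.07%), the AP-1 motif TGACTCA (5.2%) and the cyclic AMP element TGACGTCA (1.79%) were in none of the 15 windows, which says only that these letters are not there. The E-box CACGTG (7.15%) was in windows of Bax and Bbc3, and CCAAT (37.4%) in windows of Bad, Bbc3 and Bcl2l11. A match is a stretch of letters and no evidence of binding. The members' windows held a median of 27 CG dinucleotides, against 7 over all windows.

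Bad encodes a BH3-only protein whose activity is set mainly by phosphorylation. Among the 5 BH3-only members it alone was higher, at 19.8, 18.5, 20.2 and 18.0 RPKM among Ad-control-labelled libraries and 19.6, 22.2, 23.5 and 22.7 RPKM among Ad-KLK8-labelled ones. Replicate 1 labelled Ad-KLK8 lay within the other group, while the remaining libraries of its group lay above. The log2 change was 0.19 ± 0.06 (SE, adjusted p = 0.0139), 0.40 after median-of-ratios scaling (adjusted p = 7.75e-05), but 0.15 and not called after rescaling to TPM (adjusted p = 0.0516). Its exons share 524 bases, 20.5% of their length, with Gpr137 on the opposite strand, which itself rose from 6.95 ± 0.636 to 8.53 ± 0.339 RPKM (adjusted p = 0.00269).

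The pore-forming effectors were the most abundant members. Bax was measured at 72.7, 68.6, 72.4 and 71.3 RPKM among Ad-control-labelled libraries and at 59.5, 61.1, 58.4 and 56.5 RPKM among Ad-KLK8-labelled ones. The groups did not overlap, yet the log2 change of −0.27 ± 0.04 (SE, adjusted p = 6.94e-05) was close to the shift of all genes. After median-of-ratios scaling it was −0.055 (adjusted p = 0.18), with a 95% interval of −0.13 to 0.02.

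Bak1, the second effector, was measured at 62.6, 59.4, 62.4 and 58.7 RPKM among Ad-control-labelled libraries and at 66.7, 60.9, 66.9 and 60.5 RPKM among Ad-KLK8-labelled ones. Replicates 2 and 4 labelled Ad-KLK8 fell inside the range of the first group. The log2 change of 0.07 (95% interval −0.04 to 0.17) did not pass (adjusted p = 0.202). After median-of-ratios scaling it was 0.285 and passed (adjusted p = 1.99e-04). Its exons share 614 bases with Ggnbp1 on the opposite strand, a gene with means of 0.662 and 0.924 RPKM.

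Among the survival genes Mcl1, whose short-lived protein guards BAK in many cell types, was the most abundant. It stood at 52.1, 47.8, 54.3 and 48.7 RPKM among Ad-control-labelled libraries and at 44.0, 43.8, 42.0 and 44.6 RPKM among Ad-KLK8-labelled ones. All of the latter lay below all of the former, and the log2 change was −0.21 ± 0.05 (SE, adjusted p = 0.00166). After median-of-ratios scaling it was 0.00 (adjusted p = 0.96, 95% interval −0.10 to 0.10).

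Bcl2l1, which encodes the long-lived BCL-XL and by splicing the shorter BCL-XS, stood at 26.2, 23.3, 24.8 and 27.7 RPKM among Ad-control-labelled libraries. Among Ad-KLK8-labelled libraries it was 25.3, 23.5, 24.1 and 24.5 RPKM, all inside the range of the first group. The log2 change was −0.06 (95% interval −0.18 to 0.06, adjusted p = 0.312), but 0.15 after median-of-ratios scaling (adjusted p = 0.0229). Values per gene do not separate the splice forms.

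Bcl2 was barely expressed. Its level was 0.714, 0.690, 0.815 and 0.712 RPKM among Ad-control-labelled libraries and 0.662, 0.841, 0.638 and 0.793 RPKM among Ad-KLK8-labelled ones, from 80 to 110 reads per library. The groups overlapped, and the log2 change was 0.00 (95% interval −0.15 to 0.15, adjusted p = 0.992). At this level the interval is on a scale that understates change.

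**Figure D2:**
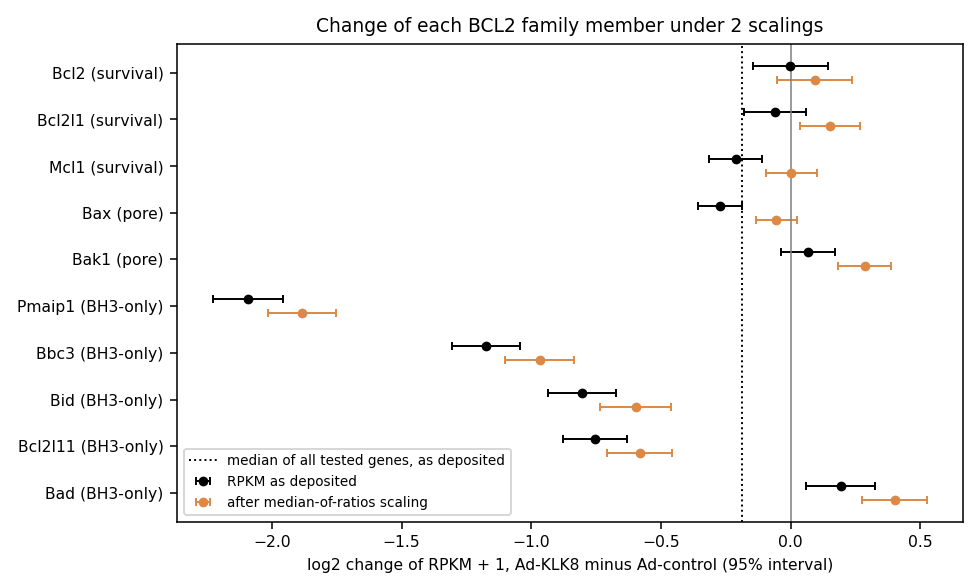
Log2 change of RPKM + 1 for each member, libraries labelled Ad-KLK8 minus those labelled Ad-control, with 95% intervals from limma. Black points use RPKM as deposited, orange points use median-of-ratios scaling, and the dotted line is the median of all tested genes at −0.19. Pmaip1, Bbc3, Bid and Bcl2l11 lie left of that line under both scalings, while Mcl1 and Bax lie near it before scaling and near 0 after it.

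Relative to one another the members kept part of their order. Among Ad-control-labelled libraries the mean RPKM ran from Bax (71.3) through Bak1 (60.8), Pmaip1 (51.5), Mcl1 (50.7), Bcl2l1 (25.5), Bbc3 (22.6), Bid (19.3), Bad (19.1) and Bcl2l11 (5.18) to Bcl2 (0.733). The neighbours Pmaip1 and Mcl1, Bcl2l1 and Bbc3, and Bid and Bad overlapped in range. Among Ad-KLK8-labelled libraries, Bak1 (63.8) and Bax (58.9) overlapped at the top, followed by Mcl1 (43.6), Bcl2l1 (24.4) and Bad (22.0). Pmaip1 (11.3), Bid (10.7) and Bbc3 (9.47) came next, each overlapping its neighbour, above Bcl2l11 (2.66) and Bcl2 (0.733). Pmaip1 thus stood level with Mcl1 in one group and below Bad in the other.

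Within a library, the share of one member in the summed RPKM of all 10 does not depend on scaling between libraries. The BH3-only genes made up 35.5%, 38.0%, 35.2% and 35.5% of the sum among Ad-control-labelled libraries and 21.2%, 23.1%, 23.1% and 23.4% among Ad-KLK8-labelled ones. Their summed level was 118 ± 3.44 and 56.1 ± 2.32 RPKM (SD, n = 4). The effectors held 40.4 ± 0.471% and 49.6 ± 1.21%, and the survival genes 23.6 ± 0.844% and 27.8 ± 0.823%. These larger shares went with lower summed levels as deposited. The effectors summed to 132.0 ± 3.62 and 122.6 ± 4.17 RPKM, and the survival genes to 77.0 ± 3.61 and 68.7 ± 1.55 RPKM. Pmaip1 alone went from 15.8 ± 0.649% to 4.58 ± 0.442%. These shares describe the chosen members and were not tested.

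Ratios of a death gene to a survival gene within a library also cancel the scaling. The ratio of Pmaip1 to Mcl1, the transcripts of a ligand and its main partner, was 0.996, 1.12, 0.959 and 0.996 among Ad-control-labelled libraries and 0.236, 0.292, 0.258 and 0.254 among Ad-KLK8-labelled ones. The mean ratio differed by 3.91-fold. The ratio of Bbc3 to Mcl1 was 0.382 to 0.516 against 0.204 to 0.234, that of Bcl2l11 to Bcl2l1 0.187 to 0.231 against 0.103 to 0.115, and that of Bid to Bcl2l1 0.708 to 0.865 against 0.400 to 0.471. None of these overlapped between the groups. Bak1 to Mcl1 ran the other way without overlap, at 1.15 to 1.24 against 1.36 to 1.59. Bax to Bcl2l1 overlapped at 2.58 to 2.94 and 2.30 to 2.60, as did Bad to Bcl2l1 at 0.650 to 0.815 and 0.774 to 0.973. Where a ratio did not overlap, its transcripts changed unequally, whichever scaling is used. Ratios of other gene pairs were not computed. Of all tested genes 49.1% were lower without overlap and 23.1% higher without overlap. Whether such separation is more frequent in this family than in other gene pairs was therefore not tested.

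**Figure D3:**
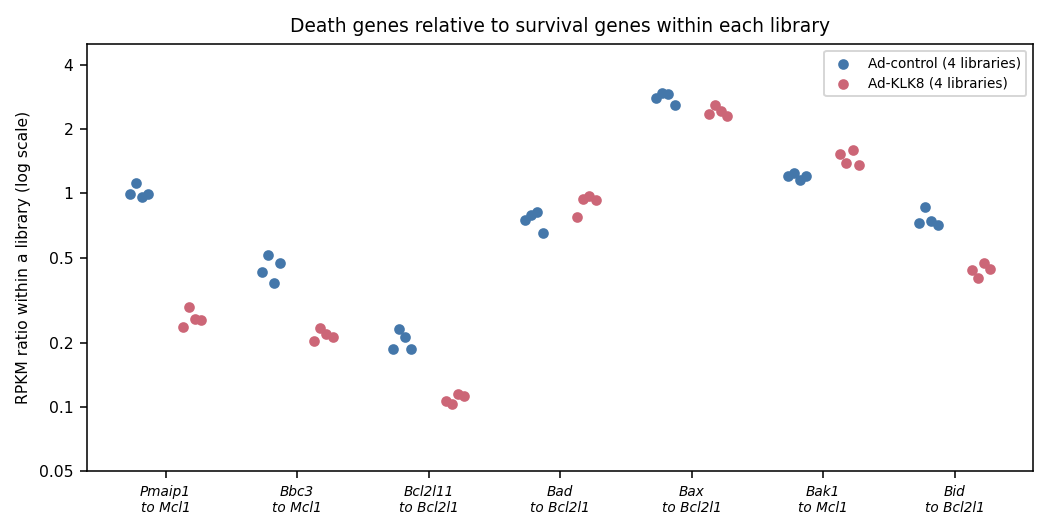
RPKM ratio of a death gene to a survival gene within each library, on a log axis. Blue points are the 4 libraries labelled Ad-control and red points the 4 labelled Ad-KLK8. The ratios led by Pmaip1, Bbc3, Bcl2l11 and Bid are lower in every library labelled Ad-KLK8, Pmaip1 to Mcl1 at 0.236 to 0.292 against 0.959 to 1.12, while those led by Bad and Bax overlap. Bak1 to Mcl1 is higher in every library labelled Ad-KLK8, at 1.36 to 1.59 against 1.15 to 1.24.

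The remaining genes of the family went in both directions. Of 17 further family and related genes, 10 were expressed highly enough to be tested, of which 7 fell, 2 rose and 1 did not pass (6, 3 and 1 after median-of-ratios scaling). Over all tested genes 52% fell and 25.7% rose (38.7% and 38.4% after that scaling). Among the BH3-only genes Bmf, which encodes a protein held at the cytoskeleton until stress, rose by 2.42-fold, with 2.18, 1.57, 1.98 and 1.71 RPKM among Ad-control-labelled libraries and 4.48, 4.80, 4.16 and 4.55 RPKM among Ad-KLK8-labelled ones. Its log2 change was 0.95 ± 0.08 (SE, adjusted p = 9.54e-07) and 1.11 after median-of-ratios scaling. Bmf and Bad, both higher, thus part from Pmaip1, Bbc3, Bid and Bcl2l11 in the same class.

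Bok, an effector relative of BAX and BAK, fell from 3.84 ± 0.327 to 1.02 ± 0.281 RPKM (SD, n = 4, adjusted p = 8.64e-07). Hrk, another BH3-only gene, had 130 reads over the libraries labelled Ad-control and 1 read over those labelled Ad-KLK8. It was too low to be tested, as was Bik at 25 and 34 reads. The survival gene Bcl2l2, which encodes BCL-W, fell from 14.2 ± 0.537 to 10.8 ± 0.568 RPKM (adjusted p = 4.53e-05). The A1 genes Bcl2a1b and Bcl2a1d fell from 2.65 ± 1.55 to 0.979 ± 0.185 RPKM (adjusted p = 0.015) and from 1.19 ± 0.549 to 0.393 ± 0.178 RPKM (adjusted p = 0.00669). They are near-identical copies, so reads may be split among them, and both calls were lost when closely similar libraries were averaged (adjusted p = 0.129 and 0.061), that of Bcl2a1b also in the voom fit (0.059). Another copy, Bcl2a1a, had 34 and 11 reads and was not tested, nor was Bcl2l10, with a single read in all.

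Of the related genes, Bnip3 and Bnip3l encode mitophagy receptors with a BH3-like stretch. Bnip3 fell from 125 ± 27.4 to 63.8 ± 3.1 RPKM (adjusted p = 3.00e-05), whereas Bnip3l rose from 39.6 ± 3.81 to 45.9 ± 1.29 RPKM (adjusted p = 0.00845, but 0.07 and not called with closely similar libraries averaged). Bcl2l12 fell from 7.46 ± 0.444 to 4.16 ± 0.502 RPKM (adjusted p = 6.29e-06). Becn1, which encodes the autophagy protein beclin 1, fell from 47.4 ± 2.5 to 38.8 ± 1.59 RPKM (adjusted p = 2.66e-04), a call lost after median-of-ratios scaling (adjusted p = 0.238). Bcl2l14 (81 and 83 reads), Bcl2l15 (267 and 60 reads) and Moap1 (5 and 1 reads) were too low to be tested.

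Downstream of the pore, 5 of 6 genes for released mitochondrial factors and the apoptosome fell and none rose (3 fell after median-of-ratios scaling). Of all tested genes 52% fell (38.7% after that scaling). The median log2 change of the list was −0.29, where that of all tested genes was −0.19. Cycs, which encodes cytochrome c, fell from 25.0 ± 1.44 to 10.9 ± 0.176 RPKM (SD, n = 4, adjusted p = 9.92e-09), and Aifm1, which encodes apoptosis-inducing factor, from 30.5 ± 0.472 to 19.5 ± 0.317 (adjusted p = 6.11e-08). Of 6 caspase genes 4 fell and 1 rose under both scalings, beside 52% and 25.7% of all tested genes as deposited and 38.7% and 38.4% after median-of-ratios scaling. The initiator gene Casp2 fell from 14.9 ± 1.03 to 5.95 ± 0.135 RPKM (adjusted p = 1.32e-08). The exception was Casp6, named after its values were seen, at 19.0 ± 1.05 and 21.4 ± 0.941 RPKM (adjusted p = 0.0107, but 0.0538 after rescaling to TPM and 0.0576 with closely similar libraries averaged).

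Of 5 inhibitor of apoptosis genes, which restrain caspases, 4 fell and none rose, beside 52% and 25.7% of all tested genes. Median-of-ratios scaling left 3 lower, without Xiap, and 1 higher, Birc6, beside 38.7% and 38.4%. Birc5, which encodes survivin and is also a mitotic gene, fell from 3.25 ± 0.45 to 0.759 ± 0.206 RPKM (SD, n = 4, adjusted p = 7.21e-07), and Birc3 from 8.00 ± 0.491 to 4.85 ± 0.469 (adjusted p = 1.11e-05). At the outer membrane 2 of 4 genes fell, beside 52% of all tested genes. The other 2 were higher once scaled by median-of-ratios, beside 38.4%. Those that fell were Mtch2, which encodes the mitochondrial receptor for cleaved BID, from 37.9 ± 0.462 to 28.4 ± 1.34 RPKM (adjusted p = 5.49e-06), and the channel gene Vdac3 from 75.3 ± 3.59 to 58.8 ± 2.2 (adjusted p = 3.20e-05, but 0.166 in the voom fit of recovered reads).

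In the death receptor arm 3 of 7 genes were higher, 2 lower and 2 not passed, against 25.7% higher and 52% lower over all tested genes. After median-of-ratios scaling 4 were higher and 2 lower, against 38.4% and 38.7%. Cflar, which encodes the caspase-8 inhibitor FLIP, fell from 18.8 ± 1.11 to 14.0 ± 0.726 RPKM (SD, n = 4, adjusted p = 4.98e-05), and the TRAIL receptor gene Tnfrsf10b from 33.0 ± 2.44 to 24.9 ± 1.38 (adjusted p = 1.29e-04, but 0.081 in the voom fit of recovered reads). The 3 that rose, named after their values were seen, were the TNF receptor gene Tnfrsf1a and the adaptor genes Fadd and Tradd. Tnfrsf1a went from 83.6 ± 7.76 to 108 ± 2.65 RPKM, Fadd from 3.33 ± 0.444 to 4.27 ± 0.225, and Tradd from 12.0 ± 0.767 to 14.0 ± 0.834. Adjusted p was 2.31e-04, 0.00512 and 0.00688, and for Tradd 0.0757 with closely similar libraries averaged. Of 3 genes for turnover of MCL1 protein 1 passed, beside 52% lower and 25.7% higher over all tested genes. It was the ubiquitin ligase gene Fbxw7, which was lower (adjusted p = 0.00738). After median-of-ratios scaling Fbxw7 did not pass while 2 others were higher, beside 38.4%. The deubiquitinase gene Usp9x was 19.7 ± 0.736 and 21.0 ± 0.688 RPKM (adjusted p = 0.0644, but 5.49e-05 for a rise after that scaling).

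Among 8 genes for transcription factors known to control BH3-only genes, 7 were tested, of which 4 fell and none rose (3 and 1 after median-of-ratios scaling). With 52% of all tested genes lower, that count is near the background. Trp53, the mouse p53 gene, fell from 91.9 ± 3.54 to 48.8 ± 3.49 RPKM (SD, n = 4, adjusted p = 9.16e-08). Atf4, the factor of the integrated stress response, fell from 256 ± 7.48 to 115 ± 13 RPKM (adjusted p = 1.03e-07). E2f1, named after its values were seen, fell from 15.6 ± 1.15 to 7.16 ± 0.689 RPKM (adjusted p = 2.68e-07). Foxo3, also named afterwards because of the forkhead core above, was 22.3 ± 1.29 and 21.4 ± 0.289 RPKM (adjusted p = 0.259, but called higher at 0.15, adjusted p = 0.0109, under median-of-ratios scaling). Pmaip1, Bbc3 and Bax are textbook p53 targets, and of these Bax alone was not called after median-of-ratios scaling. The targets of p53 were not examined as a set, and a link to the fall of Trp53 was not tested. Over all 56 genes of the 10 lists 48 were tested, of which 29 fell, 6 rose and 13 did not pass, beside 52% lower and 25.7% higher over all tested genes. The median log2 change was −0.27, beside −0.19. Under median-of-ratios scaling the counts were 23 and 14, beside 38.7% and 38.4%, and the median was −0.06, beside −0.002.

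**Figure D4:**
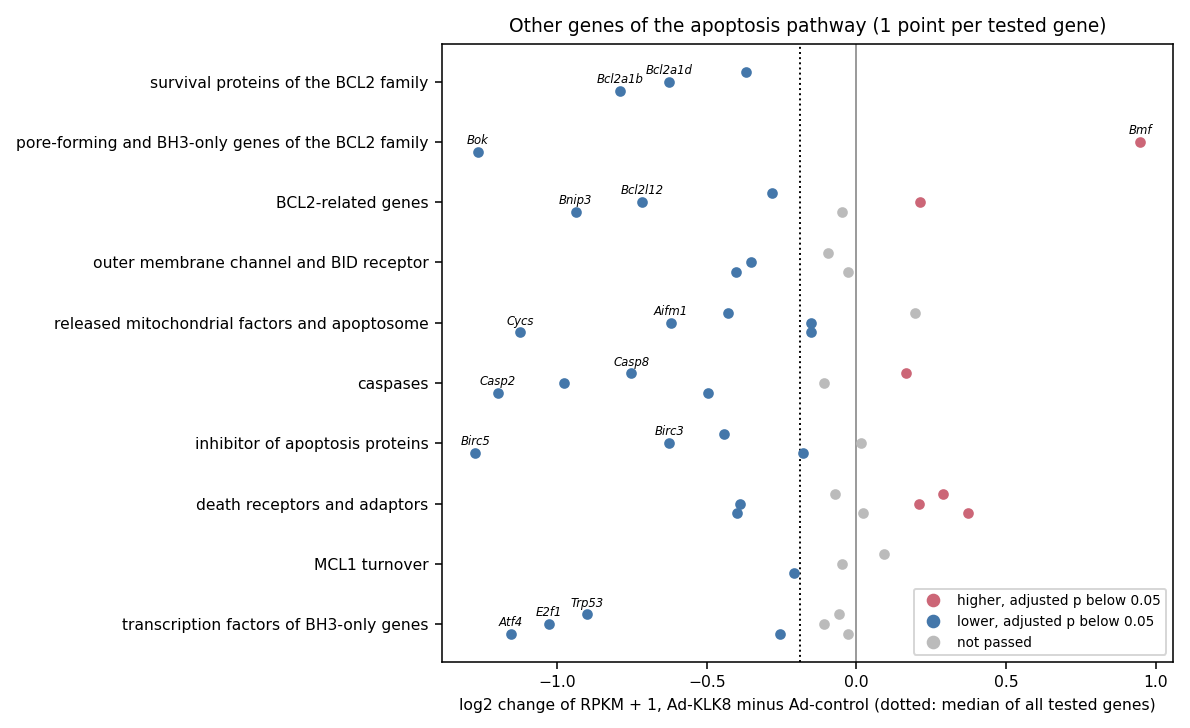
Log2 change of RPKM + 1 for each tested gene of 10 pathway lists, libraries labelled Ad-KLK8 minus those labelled Ad-control, RPKM as deposited. Colour gives the limma call and the dotted line is the median of all tested genes at −0.19. Names are given to points that passed and changed by at least 0.6, such as Bmf at 0.95 and Bok at −1.27, and 1 such point is left without a name.

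The profiles nearest to Pmaip1, by root mean square distance over the 8 libraries between centred log2(RPKM + 1) values of 11167 genes averaging 1 RPKM or more, were those of Dnmt1 (distance 0.064) and Dck (0.067). Dnmt1, a DNA methyltransferase gene, had 40.0 ± 1.75 and 9.15 ± 0.668 RPKM, and Dck, a deoxycytidine kinase gene, had 10.3 ± 0.619 and 1.80 ± 0.212 RPKM (SD, n = 4). The profiles nearest to Bad, the only member higher as deposited, were those of 4932438A13Rik (0.031) and Gcnt1 (0.038). The distances are a description over 8 libraries of 2 groups, and any gene with a group difference of like size comes near.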

How the data were processed

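RNA sequencing covered 8 mouse libraries. TRIzol was used for extraction and a stranded kit for the mRNA libraries, per the labels' protocols. The authors deposited 1 table of RPKM values for 21878 genes, and no further scaling between libraries is on record. Per the submitters' processing notes, the tools were Trimmomatic, HISAT2, SAMtools, Cufflinks and DESeq (versions and roles not stated) and the build was human GRCh38, although the table carries mouse symbols and identifiers. Given this conflict, deposited genes get no coordinates. Dates stand in place of 12 gene names, none of them a gene named here.

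The members and lists were chosen with earlier results of these data known. Of the 21878 genes 17461 had a value above 0, and in all of these each deposited RPKM came out as a whole number of reads within a tolerance. The tolerance was 0.001 read, and wider in proportion to reads for the most abundant genes. Whole reads were recovered this way, and for genes of few reads they may be too low by a common factor. A count of 0 allowed up to 0.16 to 0.19 reads per 1000000, for counting error only. The main test was two-sided moderated testing in limma 3.58.1 under R 4.3.3 (lmFit, then eBayes with trend) on log2(RPKM + 1), with group as the only term, over genes averaging 0.5 RPKM or more. Benjamini-Hochberg adjustment ran over all 11998 tested genes, with a threshold of 0.05. Python 3.11.15, pandas 2.3.3 and scipy 1.17.1 served for tables and exact tests. The script was tested on simulated data. Named genes are the 10 members, all genes of the BCL2 family lists, the 2 genes of smallest adjusted p in each other list, Klk8, the profiles nearest to the most changed members, and those said to be named after their values were seen. A gene that the rule would name is not reported here. Alternatives were other pseudocounts, filters, scalings and priors, the replicate number as a block, averaging of closely similar libraries, voom on recovered reads, and leaving out each library. Between libraries of a group, chi-square over its degrees of freedom was 2.46 for Ad-control-labelled 1 and 3, 2.09 to 2.6 among Ad-KLK8-labelled 1, 3 and 4, and 6.37 to 19 for other pairs. All exceeded sampling noise, and each library counted as 1 sample. That excess does not show that libraries came from separate cultures or animals. Averaging closely similar libraries left 3 Ad-control-labelled and 2 Ad-KLK8-labelled samples. The limma adjusted p was then 6.38e-06 for Pmaip1, 2.57e-05 for Bbc3, 8.42e-05 for Bid and 1.12e-04 for Bcl2l11.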

Additional observations from a re-analysis of the deposited data

Results flagged for a closer look

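In 109 sets of 4 libraries, 1 library stood apart from the other 3 by more than 0.829 of the range in 11 sets. A rate of 1 in 20 would give 5.45, but the 2 counts cannot be compared. The sets share the same 8 libraries. For Hrk, Bcl2l10 and Moap1 a single read against 0 makes the gap equal to the range by itself. Among the members Bcl2l11 was flagged, at 2.42 RPKM in the library labelled Ad-KLK8 replicate 2, against 2.71 to 2.76 in the others. The same library stood apart for Klk8 (3263 RPKM against 1159 to 1354), Atf4 (134.5 RPKM against 108.4 to 108.5) and Hrk (0.0105 RPKM, 1 read, against 0). Replicate 4 labelled Ad-control was high for Bnip3 (165.7 RPKM against 108.2 to 116.5), replicate 3 for Bcl2l14 (0.749 against 0.376 to 0.424) and replicate 2 for Vdac3 (80.7 against 73.1 to 74.0). Replicate 3 labelled Ad-KLK8 was high for E2f1 (8.19 RPKM against 6.78 to 6.84) and Bcl2l10 (0.0439, a single read), and replicate 4 for Cycs (11.2 against 10.8 to 10.9) and Moap1 (0.0143, a single read). The call for Bcl2l11 was the same without the library labelled Ad-KLK8 replicate 2.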

How the results depend on the processing

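Pmaip1, Bbc3, Bid and Bcl2l11 were lower and called in each of 19 alternatives, with log2 changes of −2.20 to −1.88, −1.27 to −0.97, −0.89 to −0.58 and −0.94 to −0.58. Values of the other members moved with scaling. After median-of-ratios scaling, upper-quartile scaling and the voom fit, Bcl2l1 was 0.15, 0.11 and 0.21, Mcl1 0.002, −0.036 and 0.057, and Bak1 0.285, 0.25 and 0.34. Bcl2 was 0.092, 0.076 and 0.27 in these, 0.038 with closely similar libraries averaged and −0.03 to 0.026 when 1 library was left out, not called in any setting run. With a filter at a mean of 1 RPKM it was not tested. Bax was −0.055 after median-of-ratios scaling and −0.001 in the voom fit, and Bad was 0.15, not called, after rescaling to TPM. The count of members higher was 1, but 3, 2 and 3 in the first 3 settings and 0 after rescaling to TPM, and that of pathway genes higher was 6, but 14, 13 and 18, and 3 with closely similar libraries averaged. Over all genes the voom fit called 5028 higher, against 3079. Outside the members Bcl2l13 turned to 0.15, 0.11 and 0.22, Foxo3 to 0.15, 0.12 and 0.21, and Fbxw7 to 0.005 in the voom fit alone. The ratio of Bcl2l11 to Bcl2l1 differed by −0.90 on the log2 scale, and by −0.69 as a ratio of RPKM + 1. The Klk8 difference was −0.036 to 0.46 when 1 library was left out. Leaving out any library changed none of the members' calls. Same-numbered libraries did not deviate together (correlations of −0.09 to 0.01), and with the replicate number as a block 9170 genes and 7 members were called, which changed no member's call. Bcl2, at 80 to 110 reads per library, is the member whose change depth limits most.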
